A study of Homo sapiens with 12 samples.

Results

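Genes of mast cells, basophils and eosinophils were followed through blood differentiation of human embryonic stem cells (hESCs) with and without *GATA2*. The set holds 9 of the 56266 genes in the files, *KIT*, *HDC*, *CPA3*, *TPSAB1*, *MS4A2*, *CLC*, *PRG2*, *EPX* and *SRGN*, chosen by symbol as the receptor and the granule genes of these lineages. RNA-Seq had been done on the H1 hESC line, wildtype (WT) or H1-*GATA2*-/-, in which a PGK promoter-driven neomycin cassette and TALENs, a pair of designed nucleases, disrupted exon 3 of both *GATA2* alleles. Both genotypes were differentiated on OP9, a mouse stromal line. HEs, the CD34+CD31+CD43- hemogenic endothelium from which blood cells arise, were sorted at day 8, and HPCs, the CD34+CD43+ hematopoietic progenitor cells, at day 9. The 10 libraries analysed fall into 5 groups of 2: undifferentiated *GATA2*-/- hESCs, WT HEs, *GATA2*-/- HEs, WT HPCs and *GATA2*-/- HPCs. The 2 WT hESC samples were not analysed here, so stem cell values come from 1 genotype. The knockout line was 1 clone, and nothing in the labels says that the replicates came from separate cultures, so p-values measure only the spread between these libraries, which may be technical.

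Mast cells, basophils and eosinophils are granulocytes that store ready-made mediators in granules, and GATA2 is a transcription factor known to be needed for their formation. *KIT* encodes the receptor for stem cell factor and marks early hematopoietic progenitors as well as mast cells. The granule genes encode the enzyme that makes histamine (*HDC*), proteases (*CPA3*, *TPSAB1*), eosinophil major basic protein and peroxidase (*PRG2*, *EPX*), the Charcot-Leyden crystal protein (*CLC*) and the proteoglycan core that binds granule contents (*SRGN*), while *MS4A2* encodes the beta chain of the high-affinity IgE receptor.

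The promoters of the tested members with an entry in the table are shown, because GATA factors bind short motifs built on their name and these genes were compared across *GATA2* genotypes. Each run is the 250 bases before the RefSeq start of the gene, 5′ to 3′ on the strand of the gene, from the RefSeq table for GRCh38.p14, and capitals mark a match to a GATA motif on either strand. The motifs searched were AGATAA with its reverse complement TTATCT on the other strand, next AGATAG with its reverse complement CTATCT on the other strand, next TGATAA with its reverse complement TTATCA on the other strand, and last TGATAG with its reverse complement CTATCA on the other strand. None of these motifs is contained in another.
KIT, chr4:54657707-54657956, plus strand: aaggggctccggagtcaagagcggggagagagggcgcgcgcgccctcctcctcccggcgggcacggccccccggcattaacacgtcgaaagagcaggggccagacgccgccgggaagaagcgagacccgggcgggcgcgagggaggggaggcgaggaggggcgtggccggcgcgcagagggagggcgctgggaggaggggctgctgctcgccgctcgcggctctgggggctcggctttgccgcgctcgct
HDC, chr15:50265727-50265976, minus strand: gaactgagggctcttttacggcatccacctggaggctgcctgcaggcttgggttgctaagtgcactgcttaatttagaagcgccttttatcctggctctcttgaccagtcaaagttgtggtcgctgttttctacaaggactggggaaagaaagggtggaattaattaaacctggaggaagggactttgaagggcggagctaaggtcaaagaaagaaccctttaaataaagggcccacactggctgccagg
CPA3, chr3:148865046-148865295, plus strand: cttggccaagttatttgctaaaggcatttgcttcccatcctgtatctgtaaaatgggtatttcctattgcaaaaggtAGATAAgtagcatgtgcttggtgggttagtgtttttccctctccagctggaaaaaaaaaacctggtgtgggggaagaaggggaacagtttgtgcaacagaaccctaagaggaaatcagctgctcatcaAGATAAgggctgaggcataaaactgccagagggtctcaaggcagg
CLC, chr19:39738030-39738279, minus strand: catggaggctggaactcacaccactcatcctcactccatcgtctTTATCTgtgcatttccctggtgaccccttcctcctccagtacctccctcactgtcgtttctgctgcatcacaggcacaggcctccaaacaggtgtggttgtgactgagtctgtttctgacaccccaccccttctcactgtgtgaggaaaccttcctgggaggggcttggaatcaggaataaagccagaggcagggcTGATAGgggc
*CPA3* held 2 matches, at 173 and 45 bases before the start. *CLC* held 2, at 206 and 10 bases, and *KIT* and *HDC* held 0. *MS4A2* held 1 match, at 54 bases. Of 35114 RefSeq promoters of this length, 22.3% held at least 1 match and 4.96% at least 2. The *KIT* promoter was 76.4% G and C, higher than 91.9% of all promoters. A match is a description of letters and not of a bound site. *TPSAB1*, *PRG2*, *EPX* and *SRGN* had no entry in the table.

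The values were deposited as TPM, transcript abundance corrected for length and scaled to the same total in every library, so the read depth is unknown and no counting error can be given. Library sums were 998299 to 999106, and a TPM of 1 or more was reached by 16004 to 17335 genes. Tests used limma on log2(TPM + 1) over 21543 genes, with a threshold of 0.05 on the Benjamini-Hochberg adjusted p. The 1 added to each TPM makes fold changes of low genes too small. *GATA2* itself was at 2.05 to 5.54 TPM in hESCs, 78.03 to 106.8 in WT HEs, 94.06 to 110.9 in HEs labelled *GATA2*-/-, 204.17 to 290.1 in WT HPCs and 83.82 to 112.5 in HPCs labelled *GATA2*-/-. The gene-level value counts any RNA of the disrupted locus and did not separate the HE genotypes, so every genotype direction given here is that of libraries labelled *GATA2*-/- against libraries labelled WT. Stage markers moved with the sort, counted at an adjusted p under 0.05. From hESCs to HEs labelled *GATA2*-/-, 8 of 8 endothelial markers rose, where 30.0% of all genes passed. From HEs to HPCs, 8 of 8 endothelial markers fell in both genotypes. In the same step 10 of 10 erythroid markers rose in the *GATA2*-/- libraries, where 12.7% of all genes passed. In WT 9 of 10 rose, where 9.91% of all genes passed.

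The members separated into genes that were present and genes that were near 0. *KIT* had a TPM of at least 1 in 10 of 10 libraries, *HDC* and *SRGN* in 7, *CPA3* in 5, and *CLC* and *PRG2* in 2. *TPSAB1*, *MS4A2* and *EPX* reached it in 0 libraries, and these 3 were not tested. In all, 6 of 9 members entered the test. *CLC* entered only through the 2 hESC libraries and *PRG2* only through the 2 WT HPC libraries, the groups where each is high, so both had to differ there and are given as a description with no test. The plot of TPM by library shows the separation.

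**Figure D1:**
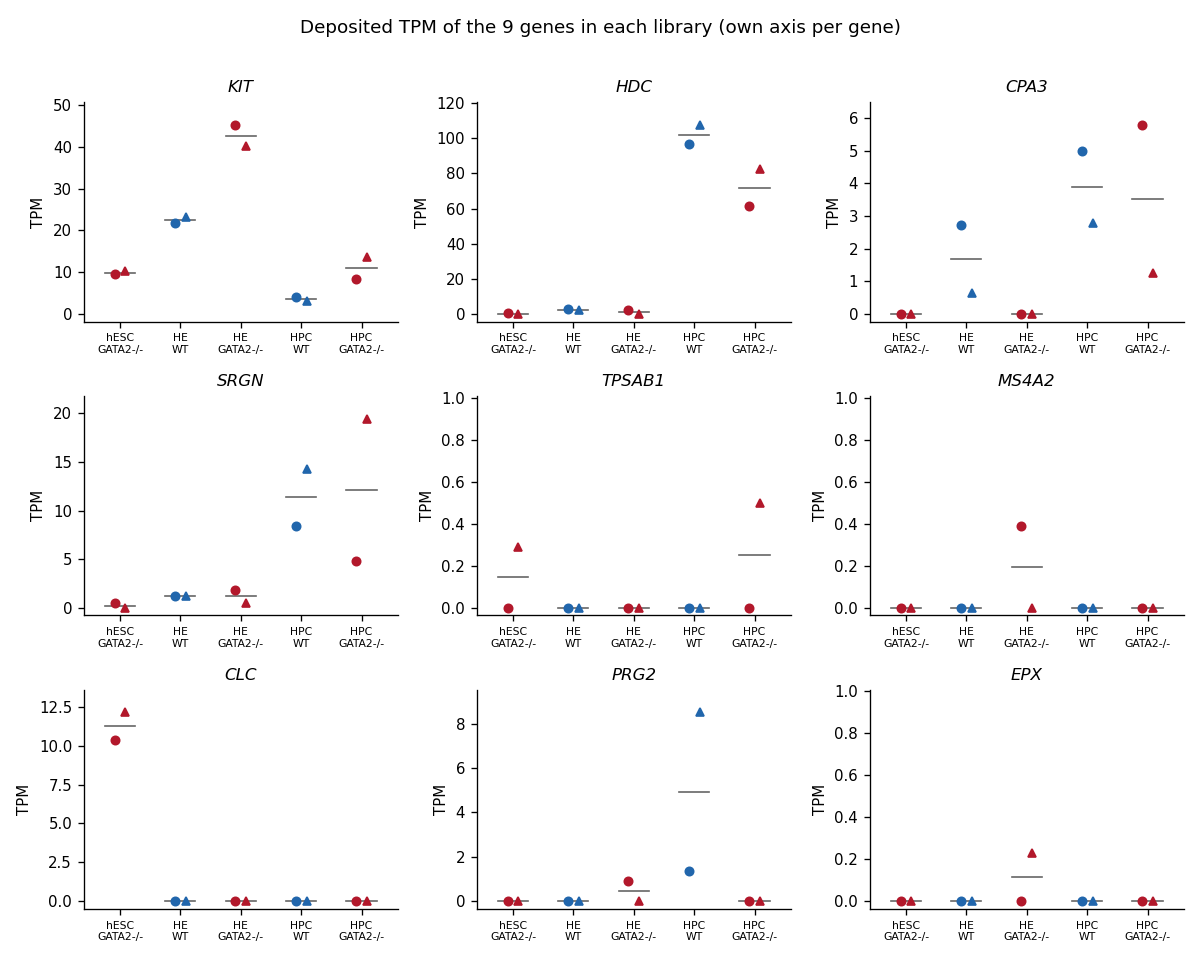
TPM (y axis, linear, its own range for each gene) of the 9 members in the 5 groups (x axis), with replicate 1 as circles, replicate 2 as triangles, the group mean as a line, WT in blue and libraries labelled GATA2-/- in red. KIT is highest in HEs and HDC, SRGN and CPA3 in HPCs, while CLC is above 0 only in the 2 hESC libraries and TPSAB1, MS4A2 and EPX stay at or below 0.5.

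*KIT* (ENSG00000157404, chromosome 4 from 55523434 to 55606949 on the plus strand of GRCh37) was the member with the clearest genotype difference. The WT HE libraries held 21.81 and 23.18 TPM of it, and the HE libraries labelled *GATA2*-/- 45.18 and 40.1. At the HPC stage WT held 4.02 and 3.04 TPM, and the *GATA2*-/- libraries 8.48 and 13.72. Every library labelled *GATA2*-/- lay above every WT library of its stage, a pattern that 3.37% of all tested genes shared. The ratio of the *GATA2*-/- to the WT mean was 1.9 in HEs (2.07 between the replicate 1 libraries and 1.73 between the replicate 2 libraries) and 3.14 in HPCs (2.11 and 4.51). On the log2(TPM + 1) scale the difference was 0.89 (standard error 0.27) in HEs and 1.39 (0.27) in HPCs. With adjustment over all 21543 genes limma gave adjusted p = 0.792 in HEs and 0.205 in HPCs, so neither passed, and the unadjusted p was 0.00916 and 0.00062.

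Averaged over both stages, the *KIT* difference was 1.14 on the log2 scale (95% interval 0.71 to 1.57, limma adjusted p = 0.140, unadjusted p = 0.000219, rank 33 of 21543 genes). An exact permutation test of genotype within each stage, two-sided, gave p = 0.0556, the smallest that 36 arrangements allow. Any gene whose *GATA2*-/- libraries all lay on the same side of WT at both stages gets this p. In that way 3.37% of tested genes lay above WT and 2.93% below. The test therefore restates the separation given above and could not fall under 0.05. The HPC difference minus the HE difference was 0.50 (standard error 0.38, limma adjusted p = 0.912), so the genotype effect was not shown to differ between the stages. In bulk RNA, more cells that carry *KIT* and more *KIT* RNA per cell cannot be told apart. The summed TPM of 8 endothelial markers, the cell type in which *KIT* was highest here, was 2775 to 2815 in WT HEs and 2976 to 3301 in HEs labelled *GATA2*-/-, and 552.4 to 765.5 and 684.5 to 804.7 in the HPCs. In HEs and HPCs 0 of these markers was at 0 and 0 of the 8 passed for genotype in either stage with limma. In each stage 1 had an unadjusted p under 0.05, against 4.85% of all genes in HEs and 8.94% in HPCs. These markers were *EMCN* in HEs, at 67.44 and 85.33 TPM in WT and 153.26 and 179.19 in *GATA2*-/- (unadjusted p = 0.0147, adjusted p = 0.821 in limma), and *VWF* in HPCs, at 4.06 and 5.02 against 9.46 and 8.48 (0.00606 and 0.317). The part of these cells in the *KIT* difference was not tested.

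Across stages *KIT* rose and then fell. Its TPM was 9.48 and 10.24 in hESCs. From hESCs to HEs labelled *GATA2*-/- it rose 4.32-fold by the ratio of means (2.005 on the log2 scale, a step in which 30.0% of all genes passed, adjusted p = 0.000655). From HEs to HPCs it fell 6.37-fold in WT (log2 −2.38, adjusted p = 0.00103) and 3.84-fold in the libraries labelled *GATA2*-/- (log2 −1.88, adjusted p = 0.00248). The order of the group means was HEs labelled *GATA2*-/- (42.64 ± 3.592, SD, n = 2), WT HEs (22.49 ± 0.9687), HPCs labelled *GATA2*-/- (11.1 ± 3.705), hESCs (9.86 ± 0.5374) and WT HPCs (3.53 ± 0.693). The hESC libraries lay inside the range of the *GATA2*-/- HPCs, and that step was 0.12 (standard error 0.27, adjusted p = 0.779).

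Genes whose levels ran most like *KIT* over the 10 libraries were *ZFP36L2* (Pearson's r = 0.974), *RFX8* (0.970) and *GALNT18* (0.966). The libraries are grouped by stage, so these values describe the stage pattern and carry no p.

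The ligand of the receptor and the relay behind it were described with a list of 17 genes, all of which were tested. *KITLG*, which encodes stem cell factor, was at 49.04 and 36.8 TPM in WT HEs and at 75.06 and 62.94 in HEs labelled *GATA2*-/-. The ligand was far lower in HPCs, where WT held 2.7 and 0.95 and the *GATA2*-/- libraries 4.41 and 3.76. Its log2 difference was 0.68 (standard error 0.51, adjusted p = 1.0) in HEs and 0.92 (0.51, adjusted p = 0.651) in HPCs. *KITLG* fell from HEs to HPCs in both genotypes (log2 −4.02, adjusted p = 0.00183 in WT and −3.78, adjusted p = 0.00197 in *GATA2*-/-), in the same direction as its receptor. *PTPN6*, a phosphatase that dampens receptor signals, was lower in the *GATA2*-/- libraries of each stage, as 2.93% of tested genes were, with 29.02 and 26.47 TPM for WT HEs against 15.62 and 11.51. HPCs held 203.64 and 151.03 TPM (WT) and 76.75 and 112.51 (*GATA2*-/-). Its log2 difference was −0.99 in HEs (adjusted p = 0.652) and −0.91 in HPCs (adjusted p = 0.340). For genotype, 0 of the 17 genes passed in either stage with limma. An unadjusted p under the threshold was found for 1 in HEs and 2 in HPCs, against 4.85% and 8.94% of all genes. The median difference was 0.03 and −0.02 against −0.01 and 0.05 over all genes.

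**Figure D2:**
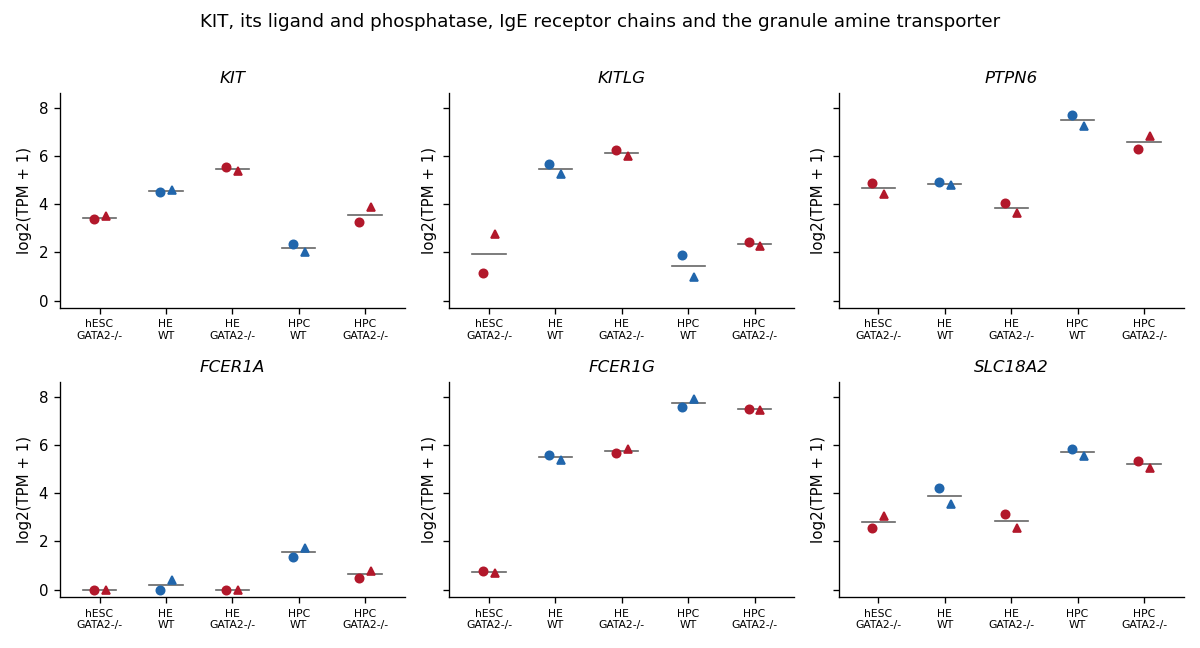
log2(TPM + 1) (y axis) of KIT, its ligand KITLG, the phosphatase PTPN6, the IgE receptor chains FCER1A and FCER1G and the amine transporter SLC18A2 in the 5 groups (x axis), drawn as in the plot by library. KIT and KITLG are lowest in WT HPCs among HEs and HPCs, and PTPN6, FCER1G and SLC18A2 are higher in HPCs than in HEs.

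*HDC* (ENSG00000140287, chromosome 15 from 50534144 to 50558162, minus strand), which encodes histidine decarboxylase, had the highest TPM of the 9 members in HPCs. WT HEs held 2.92 and 2.17 TPM, and WT HPCs 96.7 and 107.45. In the libraries labelled *GATA2*-/- it was 0.36 and 0 in hESCs, 2.2 and 0.3 in HEs and 61.21 and 82.7 in HPCs. All 4 HPC libraries lay above all 4 HE libraries, as 9.48% of tested genes did. By the ratio of means *HDC* rose 40.1-fold from HEs to HPCs in WT (log2 4.87, standard error 0.42, adjusted p = 0.000507) and 57.6-fold in *GATA2*-/- (log2 5.14, adjusted p = 0.000304). The second ratio depends on 1 low library: it was 27.8 between the replicate 1 libraries and 276 between the replicate 2 libraries.

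Both HPC libraries labelled *GATA2*-/- were below both WT HPC libraries for *HDC*, by 1.42-fold in the means, and 13.0% of tested genes separated in this way. The log2 difference was −0.51 (95% interval −1.48 to 0.45, adjusted p = 0.745), and in HEs, where the groups overlapped, it was −0.79 (−1.75 to 0.18, adjusted p = 1.0). *SLC18A2*, which encodes the transporter that loads histamine into granules, was at 56.07 and 45.65 TPM in WT HPCs and 39.42 and 32.03 in HPCs labelled *GATA2*-/-. The HE libraries held 17.75 and 10.81 (WT) and 7.86 and 4.81 (*GATA2*-/-), so both *GATA2*-/- libraries lay below both WT libraries at each stage, as for 2.93% of tested genes. *SLC18A2* rose from HEs to HPCs in both genotypes (log2 1.79, adjusted p = 0.0102 in WT and 2.35, adjusted p = 0.00232 in *GATA2*-/-), and its genotype difference did not pass (mean over both stages −0.78, adjusted p = 0.431). Levels most like that of *HDC* were those of *SPN* (r = 0.994), which encodes the sorting marker CD43, *TREML2* (0.991) and *MFSD2B* (0.991), again over 10 libraries grouped by stage.

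*SRGN* (ENSG00000122862, chromosome 10 from 70847859 to 70864561, plus strand), which encodes serglycin, rose from HEs to HPCs. WT HEs held 1.23 and 1.22 TPM and WT HPCs 8.41 and 14.3. HEs labelled *GATA2*-/- held 1.81 and 0.52, and the HPCs of that label 4.76 and 19.46. The ratio of means was 9.27 in WT (log2 2.43, adjusted p = 0.0394) and 10.4 in *GATA2*-/- (log2 2.39, adjusted p = 0.0350). All 4 HPC libraries lay above all 4 HE libraries, as 9.48% of tested genes did. The WT call was lost without any 1 of its 4 libraries (adjusted p 0.0777 to 0.189), and the *GATA2*-/- call without HE replicate 1 (0.0662), HE replicate 2 (0.190) or HPC replicate 2 (0.154). The *GATA2*-/- call was also lost in a fit restricted to the libraries compared (0.0845). The *GATA2*-/- HPC libraries lay on either side of the WT libraries, and the genotype difference was −0.14 in HPCs (95% interval −1.53 to 1.25, adjusted p = 0.996) and −0.11 in HEs (−1.50 to 1.28, adjusted p = 1.0). Both intervals reached beyond 1 log2 unit in each direction. *PLEK* (r = 0.977), *ARHGAP4* (0.975) and *SLA2* (0.969) had the most similar levels.

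Enzymes that build the glycosaminoglycan chains on serglycin were counted from a list of 14 tested genes. For genotype, 0 passed in HEs and 0 in HPCs with limma. At an unadjusted p under the threshold there were 0 and 2, against 4.85% and 8.94% of all genes. The lowest p in HPCs belonged to *EXT1*, a heparan sulfate polymerase, at 0.83 and 0.54 TPM in WT and 3.72 and 5.21 in the *GATA2*-/- libraries (log2 1.69, adjusted p = 0.172). *CHSY1*, a chondroitin synthase, was at 19.42 and 16.8 and at 32.43 and 33.7 (log2 0.84, adjusted p = 0.222). From HEs to HPCs 0 rose and 3 fell in WT, where 9.91% of all genes passed, among them *EXT1* (log2 −2.81, adjusted p = 0.000906). In *GATA2*-/-, where 12.7% passed, 0 rose and 1 fell, *NDST1*, a heparan sulfate sulfotransferase (log2 −1.04, adjusted p = 0.0495). *SRGN* itself rose in both.

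*CPA3* (ENSG00000163751, chromosome 3 from 148583083 to 148614990, plus strand) encodes mast cell carboxypeptidase. WT HEs held 2.72 and 0.64 TPM, and it was listed at 0 in both *GATA2*-/- HE libraries and both hESC libraries. WT HPCs held 4.99 and 2.78 and the HPCs labelled *GATA2*-/- 5.78 and 1.25, so the genotypes overlapped at that stage. The log2 difference for genotype was −1.30 in HEs (standard error 0.59, unadjusted p = 0.0556, adjusted p = 1.0) and −0.29 in HPCs (adjusted p = 0.936). From hESCs to HPCs labelled *GATA2*-/- it rose (log2 1.97, adjusted p = 0.0342), with no fold given because the hESCs are listed at 0, and from HEs to HPCs the same genotype gave adjusted p = 0.0639. The first call was lost without hESC replicate 1 (adjusted p = 0.128), hESC replicate 2 (0.118) or HPC replicate 1 (0.181), with no filter on low values (0.0673) and in a fit restricted to the libraries compared (0.0590). A lncRNA overlaps *CPA3* on the opposite strand, and reads of the 2 cannot be told apart without strand. *MYO16* (r = 0.984), *ELAVL4* (0.967) and *ITPR1-AS1* (0.966) ran most like it.

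*PRG2* (ENSG00000186652, chromosome 11 from 57154253 to 57158123, minus strand) encodes eosinophil major basic protein. It was above 0 in 3 libraries, at 1.35 and 8.51 TPM in WT HPCs and 0.92 in 1 HE library labelled *GATA2*-/-, and was listed at 0 in both *GATA2*-/- HPC libraries. Of the 40-base words in its transcript, 54.2% also occur in the overlapping read-through entry RP11-872D17.8, so the split of reads between the 2 is uncertain. That entry was at 12.52 and 17.06 TPM in WT HPCs and at 4.68 and 6.24 in HPCs labelled *GATA2*-/- (log2 −1.29, adjusted p = 0.626). Levels most like that of *PRG2* were those of the unnamed transcripts RP11-466P24.2 (r = 0.948), RP11-479I1.4 (0.921) and RP11-578F21.2 (0.905).

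*CLC* (ENSG00000105205, chromosome 19 from 40221895 to 40228669, minus strand) was listed above 0 only in the stem cells. Its TPM was 10.34 and 12.14 in the hESC libraries and it was listed at 0 in all 8 HE and HPC libraries. Without either hESC library the gene no longer met the filter and was not tested. Its levels ran like those of *PPP4R4*, *LINC00599* and RP11-209K10.2 (each r = 1.0 to the printed digits), which are likewise listed at 0 outside the hESCs.

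The remaining members were at the edge of detection. *TPSAB1* (ENSG00000172236, chromosome 16 from 1290380 to 1292555, plus strand), which encodes mast cell tryptase, was listed at 0.29 TPM in 1 hESC library and at 0.5 in 1 HPC library labelled *GATA2*-/-, and at 0 in the other 8. It shares 80.3% of its 40-base words with other genes, above all *TPSB2*, which was at 0.3 and 0.29 in hESCs and 0 elsewhere. *MS4A2* (ENSG00000149534, chromosome 11 from 59855734 to 59865940, plus strand) was at 0.39 in 1 HE library labelled *GATA2*-/-. *EPX* (ENSG00000121053, chromosome 17 from 56270087 to 56282535, plus strand), eosinophil peroxidase, was at 0.23 in the other, and a lncRNA overlaps it on the opposite strand. Both were listed at 0 in the remaining 9 libraries. As a check for failed libraries, 10 genes that every cell uses were looked up, and 0 of them were listed at 0 in any library. This cannot tell whether a 0 of a low gene is absence or lack of reads.

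Counted over comparisons, genotype moved 0 of the 6 tested members past the threshold in HEs, where limma called 0.0186% of all genes, and 0 in HPCs, where it called 0.0603%. At an unadjusted p under the threshold *KIT* passed in HEs and in HPCs, where 4.85% and 8.94% of all genes did. The mean genotype effect called 0 members (*KIT* at the unadjusted threshold) and 0.0232% of genes (8.04% at the unadjusted threshold), and the difference between the stages called 0 members and 0.0% of genes (5.95% at the unadjusted threshold). From HEs to HPCs, 3 of 6 members passed in WT, where 9.91% of genes were called, and the same 3 in *GATA2*-/-, where 12.7% were. They were *KIT*, which fell, and *HDC* and *SRGN*, which rose. Against hESCs, *KIT* rose in HEs labelled *GATA2*-/- (30.0% of genes called), and *HDC*, *SRGN* and *CPA3* rose in HPCs (30.6%), the last with the lost calls given above. *CLC* and *PRG2* count among the 6 tested members, but their own results are not named here because of how they entered the test.

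**Figure D3:**
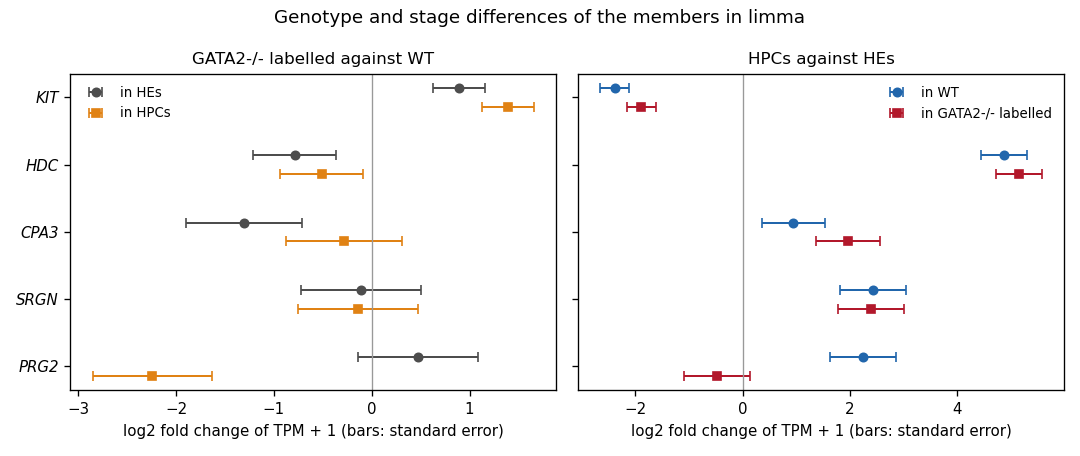
log2 fold change of TPM + 1 (x axis) with its standard error for 5 tested members (y axis), by genotype at each stage on the left and from HEs to HPCs in each genotype on the right, from the limma fit. KIT lies above 0 for genotype at both stages and below 0 from HEs to HPCs. HDC and SRGN lie above 0 from HEs to HPCs. CLC, at 0 in all these libraries, is not drawn. PRG2 is drawn but not read as a test, because it entered only through WT HPCs and had to differ there.

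Other genes of the same lineages were counted from lists. Of 18 mast cell genes 10 were tested, of 9 basophil genes 6 and of 11 eosinophil genes 4. Some genes of mature cells were near 0: the mast cell proteases *CMA1* and *TPSD1* and the eosinophil ribonuclease *RNASE3* were listed at 0 in every library, and *RNASE2* did not pass 0.49 TPM. Summed TPM of the mast cell list was 221.1 to 279.6 in WT HPCs and 234.4 to 316.9 in HPCs labelled *GATA2*-/-, that of the basophil list 1190 to 1293 and 762.9 to 1172, and that of the eosinophil list 91.24 to 128.2 and 21.68 to 46.97. The basophil and eosinophil sums did not overlap and the mast cell sums did. Among single tested genes, 13.0% had both HPC libraries labelled *GATA2*-/- below both WT HPC libraries, and no such share was taken for sums. The nearest basophil sums were 1172 and 1190. *ITGA2B*, which also marks megakaryocytes, carried nearly all of the basophil sum, at 1147.41 and 1257.66 TPM in WT HPCs and 736.13 and 1140.18 in the *GATA2*-/- libraries.

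*ALOX15*, a lipoxygenase of eosinophils that macrophages also make, carried most of the eosinophil sum. WT HPCs held 117.92 and 79.15 TPM and HPCs labelled *GATA2*-/- 41.81 and 14.5. At the HE stage WT held 6.17 and 14.61, and the *GATA2*-/- libraries 3.51 and 1.81. Both *GATA2*-/- libraries lay below both WT libraries at each stage, as for 2.93% of tested genes, and the log2 difference was −1.92 in HPCs (adjusted p = 0.398) and −1.57 in HEs (adjusted p = 0.958). The summed TPM of 9 macrophage markers moved the same way in HPCs, from 278.7 to 401.2 in WT to 131.2 to 244.6 in *GATA2*-/-, with *C1QA* and *C1QB* listed at 0 everywhere, and its part in the *ALOX15* values was not tested. *AIF1* carried most of that sum, at 227.8 and 344.21 TPM in WT HPCs and 104.51 and 202.95 in *GATA2*-/-, and of the 5 macrophage markers tested 2 had a higher and 3 a lower fitted value in *GATA2*-/- HPCs. *ALOX5*, the lipoxygenase of leukotriene synthesis, was higher in HPCs labelled *GATA2*-/-, at 5.76 and 13.96 TPM against 1.74 and 2.46 in WT (log2 1.71, adjusted p = 0.344).

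For genotype, 0 genes of the mast cell, basophil and eosinophil lists passed in HEs or HPCs with limma. At an unadjusted p under the threshold there were 2, 1 and 1 in HEs and 2, 1 and 2 in HPCs. These are counts of 10, 6 and 4 tested genes, against 4.85% of all genes in HEs and 8.94% in HPCs. The median log2 differences in HPCs were −0.02, −0.22 and −0.60, against 0.05 over all genes. From HEs to HPCs in WT, 3 of 10 mast cell genes rose, 4 of 6 basophil genes and 2 of 4 eosinophil genes, and 0 fell in any list, against 9.91% of all genes called. In *GATA2*-/- the counts that rose were 5, 3 and 2, again with 0 that fell, against 12.7%. *FCER1A* stands in both of the first lists, and *ITGA2B* also in the megakaryocyte list. Of the mast cell list, *SLC18A2* is also in the list of granule enzymes and fusion machinery, and *CTSG* in the neutrophil list. The counts are therefore not independent. *FCER1A* entered the test only through the 2 WT HPC libraries, where it is high. It is counted in both lists among the genes that rose in WT and those at the unadjusted threshold in HPCs. For that reason its part in these counts is not read. *PTGDR2*, a prostaglandin receptor of basophils, rose in both genotypes (log2 1.67, adjusted p = 0.0275 and 2.20, adjusted p = 0.00650).

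The other chains of the IgE receptor differed in level from *MS4A2*. *FCER1G*, the gamma chain that several Fc receptors share, was at 189.98 and 236.98 TPM in WT HPCs and 179.37 and 172.76 in HPCs labelled *GATA2*-/-. It rose from HEs to HPCs in both genotypes (log2 2.25, adjusted p = 0.000357 and 1.71, adjusted p = 0.000603). *FCER1A*, the alpha chain that binds IgE, was at 1.55 and 2.31 in WT HPCs and 0.38 and 0.73 in HPCs labelled *GATA2*-/-. The HE libraries held 0 and 0.32 in WT and 0 in both *GATA2*-/- libraries. Like *PRG2*, it entered the test only through the 2 WT HPC libraries, the group where it is high. *FCER1A* therefore had to differ there and is given as a description with no test. Of the 12 genes of the receptor and its relay, 6 rose in WT and 4 in *GATA2*-/- from HEs to HPCs (9.91% and 12.7% of all genes called), and 0 fell. For genotype 0 passed in HEs or HPCs with limma. In each stage 2 had an unadjusted p under the threshold, against 4.85% of all genes in HEs and 8.94% in HPCs. *FCER1A* is among the 6 that rose in WT and the 2 in HPCs, and is not read there because of how it entered the test. *SYK*, the kinase behind the receptor, rose in both (log2 1.54, adjusted p = 0.00606 and 1.62, adjusted p = 0.00375).

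Granule enzymes and the fusion machinery were counted from 13 tested genes of 15. From HEs to HPCs 4 rose and 1 fell in each genotype, where 9.91% (WT) and 12.7% (*GATA2*-/-) of all genes were called. *RAB27B*, a GTPase that brings granules to the membrane, rose (log2 1.84, adjusted p = 0.00536 in WT and 2.76, adjusted p = 0.000673 in *GATA2*-/-), as did *UNC13D*, which primes granules (2.07, adjusted p = 0.0171 and 2.27, adjusted p = 0.00953). For genotype 0 passed with limma in HEs or HPCs. Unadjusted p was under the threshold for 2 genes in HEs and 2 in HPCs, against 4.85% and 8.94% of all genes.

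**Figure D4:**
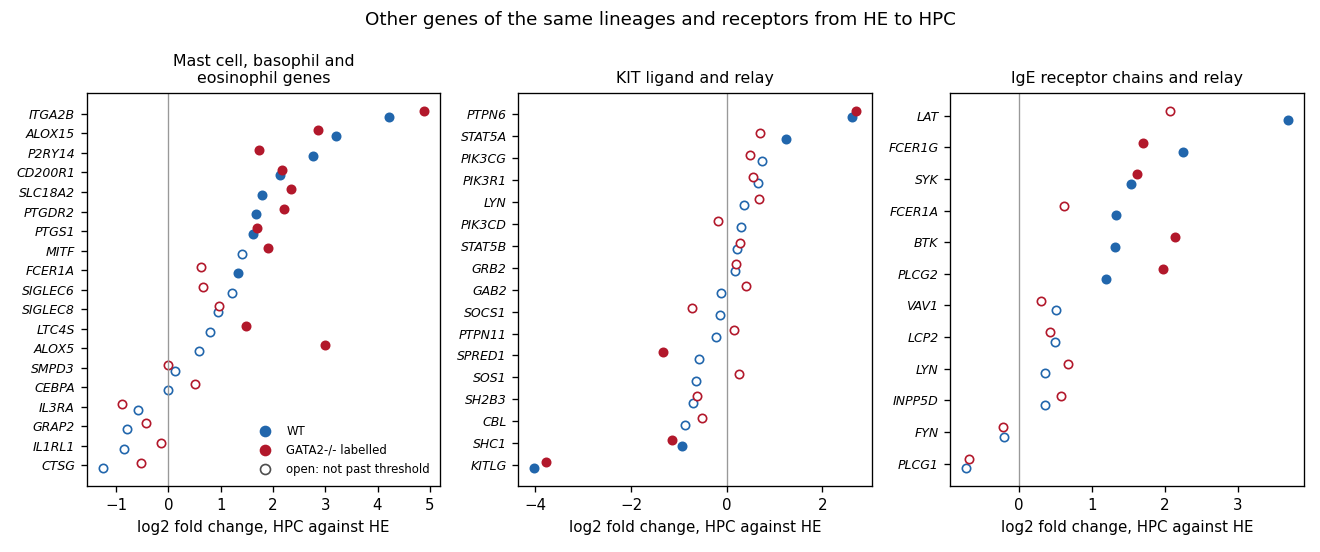
log2 fold change of TPM + 1 from HEs to HPCs (x axis) of the tested genes of the lineage lists, the KIT ligand and relay and the IgE receptor chains and relay (y axis), with WT in blue and libraries labelled GATA2-/- in red, and filled points for an adjusted p under 0.05. Filled points of the lineage lists and of the IgE receptor list all lie above 0 in both genotypes, and KITLG is the lowest point of its list. FCER1A entered the test only through WT HPCs.

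These counts share WT or *GATA2*-/- libraries between comparisons, so the genotype and stage values are not independent of each other. Other cell types differed between stages as well: the summed TPM of 8 megakaryocyte markers was 119.2 to 147.3 in WT HEs and 1654 to 1851 in WT HPCs, and 36.73 to 65.08 and 1137 to 1596 in the libraries labelled *GATA2*-/-. The summed TPM of 10 erythroid markers was 88.47 to 134.3 in WT HEs and 38.5 to 56.23 in HEs labelled *GATA2*-/-, and 5049 to 14390 and 7867 to 16380 in the HPCs. For genotype in HEs, 0 erythroid markers passed with limma and 6 of 10 had an unadjusted p under 0.05, where 4.85% of all genes did. Of 8 megakaryocyte markers 1 fell, where limma called 0.0186% of all genes. The marker that fell was *PF4*, platelet factor 4, at 37.33 and 32.12 TPM in WT HEs and 3.66 and 4.7 in *GATA2*-/- (log2 −2.79, adjusted p = 0.0249). How the HE genotype calls over all genes depend on single libraries is given in a later section. In HPCs *PF4* was at 199.58 and 307.34 TPM and at 76.54 and 99.51 (log2 −1.49, adjusted p = 0.153). The part of these cells in the stage rises of *HDC*, *SRGN* and *SLC18A2*, and in the genotype values of *KIT*, *HDC* and *SLC18A2*, was not tested.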

How the data were processed

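RNA had been extracted with Trizol, and libraries were made by the authors with a TruSeq kit, whose strand setting is not given in the sources used here. The deposited files hold 1 TPM value per Ensembl gene and library. The submitters' processing notes name Bowtie, RSEM, hg19 and mm10, with no versions and no roles. The paper itself gives a Bowtie version and its use for mapping reads to hg19, and names neither RSEM nor mm10. The authors tested differences with Cuffdiff on alignments, which cannot be repeated on TPM. The members and the gene lists were chosen with earlier results of these data known.

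All 10 libraries in 5 groups entered 1 limma model (version 3.58.1, R 4.3.3, with its eBayes step following a trend on mean expression) of log2(TPM + 1). A gene needed 1 TPM or more in 2 or more libraries, and p was adjusted by Benjamini-Hochberg. The fit was run on simulated data with large known changes, set only in genes of higher level and only between HEs. That run does not cover low genes or smaller differences. Named genes were the members, *GATA2*, *KITLG*, *FCER1A*, *FCER1G*, *TPSB2*, *RNASE2* and *RNASE3*, up to 3 genes per list and comparison with the largest change past the threshold or, where none passed, up to 2 with the lowest p, and the 3 genes most correlated with each tested member. *CMA1*, *TPSD1*, *C1QA*, *C1QB* and the read-through entry beside *PRG2* were named after their values were seen. Motifs and shared 40-base words were counted in Python 3.11.15, and positions come from GENCODE lifted to GRCh37. The alternatives were quantile normalization, a pseudocount of 0.1, no filter, no trend in eBayes, a fit restricted to the libraries compared (with the filter applied to those), a replicate block and each replicate left out.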

Additional observations from a re-analysis of the deposited data

How the results depend on the processing

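Of 502 tests of a member under an alternative, 465 kept their direction and their side of the threshold, 18 lost a call, 5 gained one and 14 changed sign. These totals include *CLC* and *PRG2*, which are otherwise given with no test. *CLC* is listed at 0 in every HE and HPC library, so its tests among these could not change. The share that stayed the same is therefore not a measure of how firm the results are. *KIT* did not pass for genotype under any of the alternatives run and kept its sign, in HEs at 0.81 to 0.98 on the log2 scale. Without either hESC replicate, *CLC* no longer met the filter. Its loss followed from how it entered the test, so it is not read as a change of a result. *CPA3* from hESCs to HPCs lost its call in the fits given in its own paragraph. The *SRGN* rise from HEs to HPCs was lost with a pseudocount of 0.1 (adjusted p = 0.115 in WT and 0.0894 in *GATA2*-/-), without a filter (0.0861 and 0.0767) and, in WT, without each replicate (adjusted p 0.0777 to 0.189).

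Sign changes were all among results that had not passed. With 1 library left out at a time, the *SRGN* genotype difference ran from −0.55 to 0.337 in HEs, from −1.059 to 0.77 in HPCs and from −0.583 to 0.332 for the mean, and its difference between stages from −0.952 to 0.876. The last was 0.101 with a pseudocount of 0.1. *CPA3* for genotype in HPCs ran from −1.081 to 0.511, *KIT* from hESCs to HPCs from −0.195 to 0.44 and the *HDC* difference between stages from −0.373 to 0.927. The cause was not tested.

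Replicate numbers were shared across groups, but the deviations of same-numbered libraries correlated at −0.014 to 0.123 between groups (0.123 between the HE genotypes and 0.055 between the HPC genotypes), so the numbers were not taken to pair them. The replicate 2 HE and HPC file headers of both genotypes carry a common tag whose meaning is not given. With the replicate block, 0 members passed for genotype in HEs or HPCs, 2 from HEs to HPCs in WT, where *SRGN* was lost (adjusted p = 0.0514), and 4 in *GATA2*-/-, where *CPA3* was gained (adjusted p = 0.0366). Over all genes, genotype called 4 genes in HEs and 2 with the block, and 13 and 3 in HPCs. With any 1 library left out, 0 genes were called in HEs and 0 to 5 in HPCs. TPM gives no depth, so what depth limits could not be measured.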

Other observations

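*CLC* sits in a cluster of galectin genes on chromosome 19. Its neighbour *LGALS14* (40195121 to 40200084 on GRCh37), chosen after its values were seen, was at 1.39 and 1.57 TPM in the hESC libraries, 0.19 in 1 HE library and 0.07 in 1 HPC library labelled *GATA2*-/-, and was listed at 0 in the other 6. *LGALS13* and *LGALS16* were listed at 0 in all 10. The flanking gene *FBL* was at 480.06 to 857.62 TPM over the 10 libraries. These neighbours, and *ELANE*, *CAMP*, *S100A8* and *MPO* in the next paragraph, were named after their values were seen.

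Of 11 neutrophil granule genes 5 were tested. *ELANE*, *CAMP* and *S100A8* were listed at 0 in every library, and *MPO* reached 3.82 TPM in 1 HPC library labelled *GATA2*-/- and was at or below 0.7 elsewhere. *LYZ*, lysozyme, was at 45.54 and 55.55 TPM in WT HPCs and at 56.4 and 59.89 in HPCs labelled *GATA2*-/-, and it rose from HEs in both genotypes (log2 1.86, adjusted p = 0.00558 in WT and 3.04, adjusted p = 0.000520 in *GATA2*-/-). *MMP9*, a protease, was at 10.61 to 34.92 TPM over HEs and HPCs. For genotype 0 of the 5 passed in HEs or HPCs with limma. At an unadjusted p under the threshold there were 2 and 0, against 4.85% and 8.94% of all genes.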
